A study of Mus musculus with 9 samples.

Results

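Klotho, the vitamin D enzymes and receptor, and the renal machinery that senses and moves calcium were followed through 10 genes, Kl, Fgfr1, Cyp27b1, Cyp24a1, Vdr, Casr, Pth1r, Trpv5, Calb1 and S100g. They were chosen by gene name and are 10 of the 55385 genes measured. Kidney mRNA of 9 male mice, C57BL/6 in the labels and C57BL/6J in the study's methods and 8 to 10 weeks old, was profiled by RNA-seq, with 1 library per mouse and 3 of the 8 mice in each of 3 groups. Control mice were labelled as untreated controls by disease state and treatment, although every sample title, theirs included, begins with the name of the HN model. HN mice had hyperuricemic nephropathy, kidney disease with raised uric acid, which was induced over 4 weeks by dosing on alternate days with potassium oxonate at 2.4 g/kg plus adenine at 0.16 g/kg. PEC mice had the same induction and received the plant flavonoid pectolinarigenin by mouth each day, at 25 mg/kg per the study's methods. The model adds a purine that injures tubules to an inhibitor of uric acid breakdown, so that HN against Control compares both agents at once.

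Kidney Klotho is a membrane protein that turns an FGF receptor such as Fgfr1 into a receptor for FGF23, the bone hormone that lowers phosphate reabsorption and calcitriol. Calcitriol, the active form of vitamin D, is made in the proximal tubule by the enzyme of Cyp27b1, broken down by that of Cyp24a1, and acts through the nuclear receptor Vdr. Parathyroid hormone acts through Pth1r, blood calcium is sensed by Casr, and calcium is taken back in the distal tubule through the channel Trpv5 and carried across the cell by the calbindins, encoded by Calb1 and S100g.

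Each library held 57714111 to 81069646 counts, and each of the 10 genes had at least 503 counts in every library. Levels are FPKM as deposited, fragment counts scaled to gene length and library total, and values of 3 libraries are given in the order of replicates 2, 4 and 5 for Control, 4, 8 and 12 for HN and 1, 2 and 3 for PEC. Tests were run on the counts with edgeR. To be called, a gene needed a fold change of 1.5 or more and a p, adjusted by Benjamini-Hochberg over the 21392 genes tested, no larger than 0.05. All 10 genes were tested. Log2 fold changes are given with their standard error (SE) and rest on TMM scaling, which sets the middle of all genes level between libraries. FPKM rests on library totals, and with such totals the median log2 fold change of all genes was 0.56 for HN against Control, -0.21 for PEC against HN and 0.40 for PEC against Control. Mitochondrially encoded genes took 14.2 ± 1.82% (SD, n = 3) of counts in Control, 6.19 ± 0.164% in HN and 12.3 ± 1.77% in PEC. Leaving them out moved the TMM calls for HN against Control from 3777 higher and 3154 lower to 3737 higher and 3171 lower. With library totals it moved the median log2 fold change for HN against Control from 0.56 to 0.43. Beyond such refits their part in the differences was not tested. In a principal component analysis the first component (40.5% of the variance) set Control apart from HN and PEC, and the next (27.1%) set HN against PEC with Control between them. No label names a batch, so that a batch shared by the PEC libraries and the treatment cannot be told apart.

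In HN kidneys, 6 of the 10 genes were called against Control, beside 32.4% of all genes tested. Kl, Vdr, Pth1r and S100g were down-regulated (4 genes, beside 14.7% of all genes called lower), whereas Cyp24a1 and Trpv5 were up-regulated (2 genes, beside 17.7% called higher). The groups did not overlap for 8 of the 10 genes in counts scaled with TMM to an equal library size (CPM), beside 55.4% of all genes. With library totals 5 of the 10 were called, beside 42% of all genes. Kl and Pth1r were lower, Fgfr1, Cyp24a1 and Trpv5 were higher, and the calls of Vdr and S100g were lost. The split of all calls moved from 3777 higher and 3154 lower to 7707 higher and 1287 lower. In PEC against HN, 2 of the 10 genes, Casr and Trpv5, were called, both lower, beside 28.7% of all genes called, 15.3% lower and 13.4% higher. The groups did not overlap in CPM for 5 genes, beside 55.5% of all genes. With library totals 3 genes were called, beside 30.8%, and the split of all calls moved from 2875 higher and 3266 lower to 1951 higher and 4631 lower. In PEC against Control, 7 of the 10 were called, beside 36.4% of all genes, 5 lower (17.4%) and 2 higher (18.9%), and the groups did not overlap in CPM for 9, beside 57.3%. With library totals 7 were called, beside 39.2%, and all calls split into 6414 higher and 1962 lower in place of 4053 and 3731. HN against Control and PEC against HN share the HN libraries, and both comparisons with Control share the Control libraries, so their values are set side by side and not related to each other. The labels give kidney as the tissue while a protocol text speaks of adipose tissue, and kidney markers such as Umod (878 ± 51.4, 1333 ± 70.9 and 1153 ± 64.4 FPKM in Control, HN and PEC, SD, n = 3) were abundant in all groups.

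**Figure D1:**
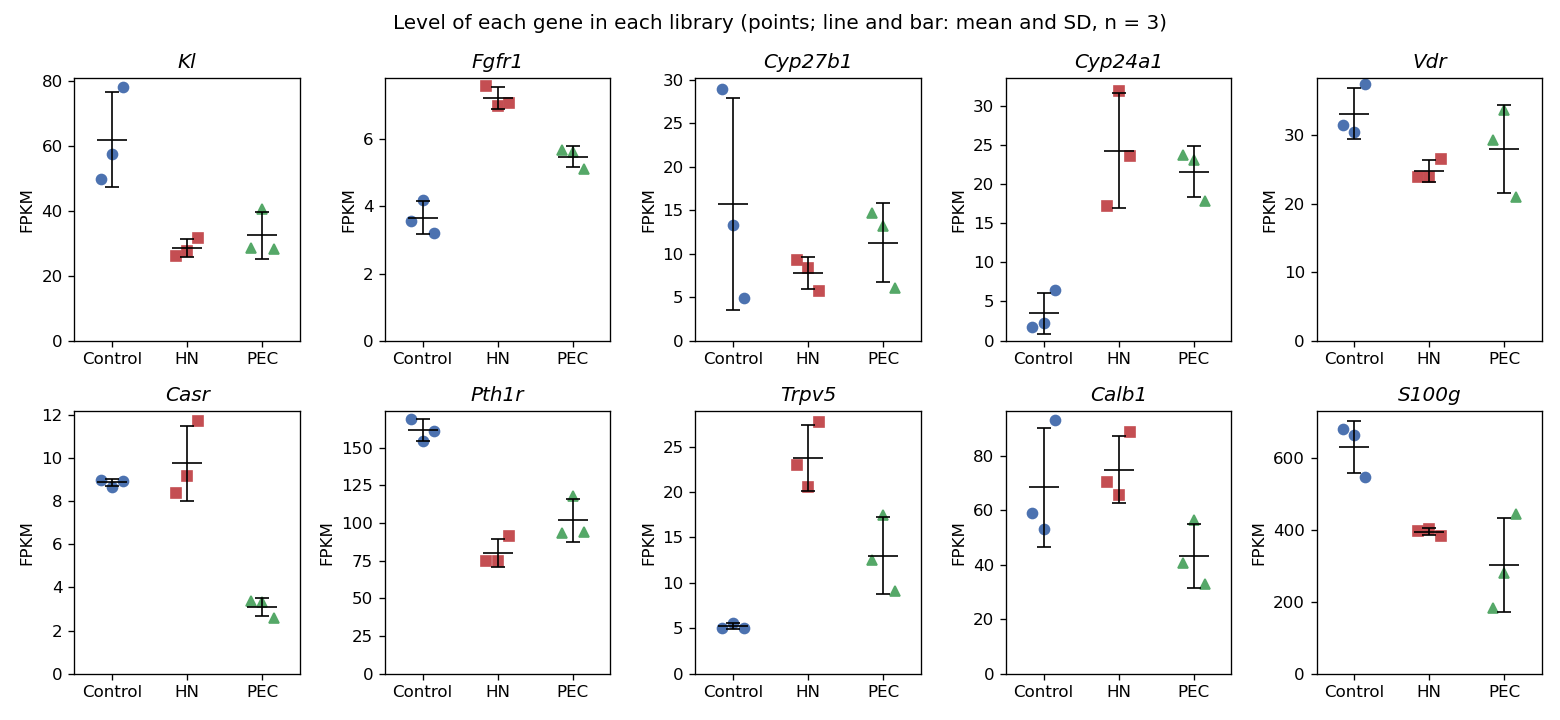
FPKM of the 10 genes in each library, with 1 point per mouse and the mean and SD of 3 mice as a line and bar. Kl, Pth1r and S100g lie lower in every HN library than in every Control library, and Trpv5 and Cyp24a1 lie higher.

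The order of the mean levels differed between groups. In Control it ran from S100g (629.8 FPKM) through Pth1r (162), Calb1 (68.3), Kl (61.9), Vdr (33.2), Cyp27b1 (15.7), Casr (8.89), Trpv5 (5.22) and Fgfr1 (3.66) to Cyp24a1 (3.47). Calb1 and Kl, Cyp27b1 and Casr, and Fgfr1 and Cyp24a1 were neighbours whose ranges overlapped. In HN, Cyp24a1 (24.3 FPKM) and Trpv5 (23.8 FPKM) stood beside Kl (28.5 FPKM) and Vdr (24.8 FPKM), each overlapping its neighbour, and Fgfr1 (7.23 FPKM) was the lowest of the 10 and overlapped Cyp27b1 (7.76 FPKM). In PEC, Casr (3.09 FPKM) was the lowest and did not overlap Fgfr1 (5.49 FPKM), its neighbour.

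The Klotho gene Kl (chr5:150952607-150993817, plus strand, GRCm38) stood at 49.9, 57.5 and 78.2 FPKM in Control, 26.1, 27.7 and 31.7 FPKM in HN and 28.5, 40.7 and 28.1 FPKM in PEC. Each HN and PEC library lay below each Control library, and the HN and PEC ranges overlapped in FPKM, though not in CPM. The group levels were 61.9 ± 14.6, 28.5 ± 2.90 and 32.4 ± 7.16 FPKM (mean ± SD, n = 3). Kl was 3.16-fold lower in HN than in Control (log2 fold change -1.66 ± 0.21 SE, edgeR adjusted p = 0.000208). PEC against HN was not called (0.40 ± 0.20 SE, edgeR adjusted p = 0.146), was 0.20 without PEC replicate 2, and was called at 0.74 after a trend with gene length had been removed and at 0.66 with a GC trend removed as well. PEC mice were still lower than Control (-1.26 ± 0.20 SE, edgeR adjusted p = 0.00098). In bulk kidney RNA, fewer cells that express a gene and less RNA per cell cannot be told apart, and this holds for each gene described here.

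Fgfr1, the receptor that Klotho converts (chr8:25513654-25575718, plus strand), was at 3.56, 4.19 and 3.22 FPKM in Control, 7.60, 7.00 and 7.10 FPKM in HN and 5.69, 5.64 and 5.13 FPKM in PEC. The 3 groups did not overlap, with HN highest and Control lowest. On the TMM scale the difference of HN from Control was under the fold limit (log2 fold change 0.45 ± 0.10 SE, edgeR adjusted p = 0.00602), while with library totals it was called at 1.01. PEC against HN (-0.18 ± 0.10 SE, edgeR adjusted p = 0.187, and 0.18 after a trend with gene length had been removed) and PEC against Control (0.27 ± 0.10 SE, edgeR adjusted p = 0.0543) were not called, although the latter was called at 0.63 with library totals.

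The genes closest in pattern to Kl were sought among 13276 tested genes that averaged 1 FPKM or more and had reads in every library, by the root mean square difference of log2(CPM) centred over the 9 libraries. Scrn3 (0.139), Cyp2j5 (0.146), Mep1a (0.152) and Acad9 (0.158) were among the closest, where each number is that difference on the log2 scale. Mep1a, which encodes a brush border protease, was at 472 ± 48.4 FPKM in Control, 190.3 ± 7.32 FPKM in HN and 229 ± 40.4 FPKM in PEC (SD, n = 3).

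Cyp27b1, which encodes the enzyme that activates vitamin D (chr10:127048250-127053006, plus strand), varied most among Control mice. Its level was 28.9, 13.3 and 4.87 FPKM in Control, 9.24, 8.30 and 5.75 FPKM in HN and 14.6, 13.1 and 6.04 FPKM in PEC. In FPKM Control replicate 5 lay below every HN and PEC library, while in CPM it lay above HN replicate 12 and PEC replicate 3. Control replicate 2 lay above all HN and PEC libraries on both scales, and the groups overlapped. The coefficient of variation was 77.6% in Control, 23.3% in HN and 40.7% in PEC. HN was lower than Control by a log2 fold change of -1.53 ± 0.56 SE, which missed the call (edgeR adjusted p = 0.0556). The call was made by DESeq2 (-1.51, adjusted p = 0.0336) and by edgeR without Control replicate 5 (-1.95, adjusted p = 0.00938) or without PEC replicate 3 (-1.53, adjusted p = 0.0452), and without Control replicate 2 the value was -0.74. PEC against HN (0.75 ± 0.56 SE, edgeR adjusted p = 0.321) and PEC against Control (-0.78 ± 0.55 SE, edgeR adjusted p = 0.279) were not called, and the latter ranged from -1.21 without Control replicate 5 to -0.0016 without Control replicate 2.

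Cyp24a1, whose enzyme breaks down calcitriol (chr2:170482708-170497145, minus strand), was at 1.71, 2.25 and 6.45 FPKM in Control, 17.3, 32.0 and 23.6 FPKM in HN and 23.8, 23.2 and 17.9 FPKM in PEC. Each HN and PEC library exceeded each Control library, and the HN and PEC ranges overlapped. Cyp24a1 was 4.75-fold higher in HN than in Control (log2 fold change 2.25 ± 0.48 SE, edgeR adjusted p = 0.00455) and 4.93-fold higher in PEC (2.30 ± 0.48 SE, edgeR adjusted p = 0.00379). Leaving out Control replicate 5, the highest Control library, gave 3.10 and 3.15. PEC against HN was 0.05 ± 0.45 SE (edgeR adjusted p = 0.940) and changed sign with library totals (-0.15). The gene overlaps Pfdn4 on the opposite strand, which had a mean of 4.22 FPKM, and the strand setting of the counting is not given in the sources used here.

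Vdr, the calcitriol receptor (chr15:97854425-97910630, minus strand), was at 31.5, 30.5 and 37.5 FPKM in Control, 23.9, 23.8 and 26.5 FPKM in HN and 29.4, 33.6 and 21.0 FPKM in PEC. Every HN library lay below every Control library, and the PEC libraries spanned both groups in FPKM. Vdr was down-regulated in HN (log2 fold change -0.96 ± 0.17 SE, edgeR adjusted p = 0.00158). With library totals the difference was -0.40 and was not called (edgeR adjusted p = 0.0584). PEC against HN was 0.39 ± 0.17 SE (edgeR adjusted p = 0.0929), and was called at 0.59 without PEC replicate 3. PEC against Control was under the fold limit (-0.57 ± 0.17 SE, edgeR adjusted p = 0.0215), and passed it with length and GC trends removed (-0.69) and without Control replicate 2 (-0.61), Control replicate 4 (-0.64), PEC replicate 1 (-0.60) or PEC replicate 2 (-0.72).

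The level of the activating enzyme relative to the degrading one was read as the log2 ratio of FPKM of Cyp27b1 to Cyp24a1 within each library, which does not depend on how libraries are scaled to each other. Control libraries had log2 ratios of 4.08, 2.57 and -0.41, HN libraries of -0.90, -1.95 and -2.04, and PEC libraries of -0.70, -0.82 and -1.56. All HN and PEC libraries lay below all Control libraries, and the lowest Control value, that of replicate 5, was nearer to the highest PEC value than to the other Control values. The mean difference was -3.71 for HN against Control, -3.11 for PEC against Control and 0.60 for PEC against HN. With single libraries left out it ranged from -4.95 without Control replicate 5 to -2.71 without Control replicate 2 for HN against Control, and from -4.35 to -2.11 without the same libraries for PEC against Control. The exact permutation test, two-sided, of 3 libraries against 3 cannot give a p below 0.10, which both comparisons with Control reached (p = 0.10, adjusted p = 0.15 over 21 tests of 7 ratios), while PEC against HN gave an exact p = 0.20.

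Casr, the calcium-sensing receptor, known from the thick ascending limb (chr16:36493696-36562141, minus strand), was at 9.01, 8.68 and 8.97 FPKM in Control, 8.38, 9.19 and 11.7 FPKM in HN and 3.35, 3.33 and 2.59 FPKM in PEC. The PEC libraries lay far below both other groups, which overlapped in FPKM. Casr was 2.71-fold lower in PEC than in HN (log2 fold change -1.44 ± 0.14 SE, edgeR adjusted p = 0.00011) and 3.58-fold lower than in Control (-1.84 ± 0.14 SE, edgeR adjusted p = 1.9e-05), and both calls held in all 24 alternative settings run. HN against Control was -0.40 ± 0.14 SE on the TMM scale, under the fold limit (edgeR adjusted p = 0.0417), and 0.16 with library totals. Set against Slc12a1, the sodium-potassium-chloride transporter of the same segment, Casr had a log2 ratio of -4.49 ± 0.21 (SD, n = 3) in Control, -3.50 ± 0.27 in HN and -4.86 ± 0.39 in PEC. HN libraries lay above all others, and Control and PEC overlapped (exact permutation p = 0.10 for HN against Control and for PEC against HN, and p = 0.20 for PEC against Control). Slc12a1 itself was at 179.8, 230.5 and 193 FPKM in Control, 117, 95.7 and 117 FPKM in HN and 97.8, 73.6 and 98.2 FPKM in PEC. Other thick ascending limb markers did not all move as Slc12a1 did. Mean levels in Control, HN and PEC were 878, 1333 and 1153 FPKM for Umod and 6.51, 13.8 and 12.6 FPKM for Cldn16. In CPM, Umod was nearly level at 3279, 3443 and 3458, and Cldn16 was at 10.3, 15.1 and 16.0. Mean levels were 70.6, 53.3 and 57.6 FPKM for Kcnj1 and 51.8, 31.8 and 45.8 FPKM for Cldn10, and Ptger3 was also lower in HN than in Control. Ratios of Casr to these genes were not taken, so that the order is shown for Slc12a1 only.

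Pth1r, the receptor of parathyroid hormone (chr9:110722085-110747145, minus strand), was at 169, 155 and 161 FPKM in Control, 74.8, 75.0 and 91.1 FPKM in HN and 93.4, 118 and 93.7 FPKM in PEC. The 3 groups did not overlap, with Control highest, HN lowest and PEC between them. Pth1r was 2.92-fold lower in HN than in Control (log2 fold change -1.55 ± 0.12 SE, edgeR adjusted p = 1.3e-05). PEC exceeded HN by 0.56 ± 0.12 SE, a fold change of 1.47 that fell short of the fold limit (edgeR adjusted p = 0.00501). It passed the limit with upper-quartile scaling (0.69), with TMM scaling after mitochondrially encoded genes were left out (0.59), with length and GC trends removed (0.64), and without HN replicate 12 (0.64), PEC replicate 1 (0.61) or PEC replicate 3 (0.64). PEC was lower than Control (-0.99 ± 0.12 SE, edgeR adjusted p = 0.000162). Relative to Slc34a1, the main phosphate transporter of the proximal tubule, the log2 ratio of Pth1r was -2.13 ± 0.13 (SD, n = 3) in Control, -1.40 ± 0.14 in HN and -2.05 ± 0.23 in PEC. It was higher in every HN library than in any other library (exact permutation p = 0.10 against each group). Other proximal tubule markers fell to different degrees in HN. Mean levels in Control, HN and PEC were 175, 85.7 and 113 FPKM for Hnf4a and 38.1, 25.2 and 10.3 FPKM for Slc5a12. They were 728, 211 and 695 FPKM for Miox. Ratios of Pth1r to these genes were not taken, so that the order is shown for Slc34a1 only.

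Trpv5, the entry channel for calcium in the distal tubule (chr6:41652173-41680769, minus strand), was at 5.05, 5.56 and 5.04 FPKM in Control, 23.0, 20.5 and 27.7 FPKM in HN and 12.5, 17.4 and 9.05 FPKM in PEC. The 3 groups did not overlap, with Control lowest, HN highest and PEC between them. Trpv5 was 3.14-fold higher in HN than in Control (log2 fold change 1.65 ± 0.22 SE, edgeR adjusted p = 0.000277) and higher in PEC than in Control (1.00 ± 0.21 SE, edgeR adjusted p = 0.00427). It was lower in PEC than in HN (-0.65 ± 0.21 SE, edgeR adjusted p = 0.0359). That call was near the threshold, and was lost without Control replicate 4 (-0.66, edgeR adjusted p = 0.0507), HN replicate 4 (-0.66, edgeR adjusted p = 0.0815), HN replicate 12 (-0.55, edgeR adjusted p = 0.112), PEC replicate 1 (-0.63, edgeR adjusted p = 0.0929) or PEC replicate 3 (-0.42, edgeR adjusted p = 0.0752). It was also lost with upper-quartile scaling (-0.52) and in a fit of HN and PEC alone (-0.65).

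Calb1, the larger calbindin (chr4:15881264-15908064, plus strand), was at 58.9, 52.9 and 93.1 FPKM in Control, 70.2, 65.4 and 88.7 FPKM in HN and 40.5, 56.2 and 32.8 FPKM in PEC. Control and HN overlapped, and PEC lay below HN in FPKM. Calb1 was down-regulated in PEC against Control (log2 fold change -0.99 ± 0.26 SE, edgeR adjusted p = 0.0133), a call lost with library totals (-0.62) and with length and GC trends removed (-0.38). HN against Control (-0.42 ± 0.26 SE, edgeR adjusted p = 0.245) was not called, was -0.091 without Control replicate 5 and changed sign with library totals (0.16). PEC against HN (-0.57 ± 0.26 SE, edgeR adjusted p = 0.115) was not called either, though it was with library totals (-0.78) and without PEC replicate 2 (-0.81), and it was 0.060 with length and GC trends removed.

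S100g, the smaller calbindin (chrX:162961992-162964599, minus strand), was the most abundant of the 10 genes, at 679, 664 and 547 FPKM in Control, 395, 402 and 383 FPKM in HN and 183, 278 and 442 FPKM in PEC. Every HN and PEC library lay below every Control library. The HN libraries lay within 1.05-fold of each other and the PEC libraries within 2.42-fold, spanning the HN values. S100g was 2.31-fold lower in HN (log2 fold change -1.21 ± 0.26 SE, edgeR adjusted p = 0.00495), and with library totals the difference was -0.66 and not called (edgeR adjusted p = 0.061). It was 2.60-fold lower in PEC than in Control (-1.38 ± 0.26 SE, edgeR adjusted p = 0.00234). PEC against HN was not called (-0.17 ± 0.26 SE, edgeR adjusted p = 0.643), was called at -0.89 after the gene length trend was removed, and was 0.085 without PEC replicate 1. The gene overlaps Ctps2 on the opposite strand, which had a mean of 7.70 FPKM.

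**Figure D2:**
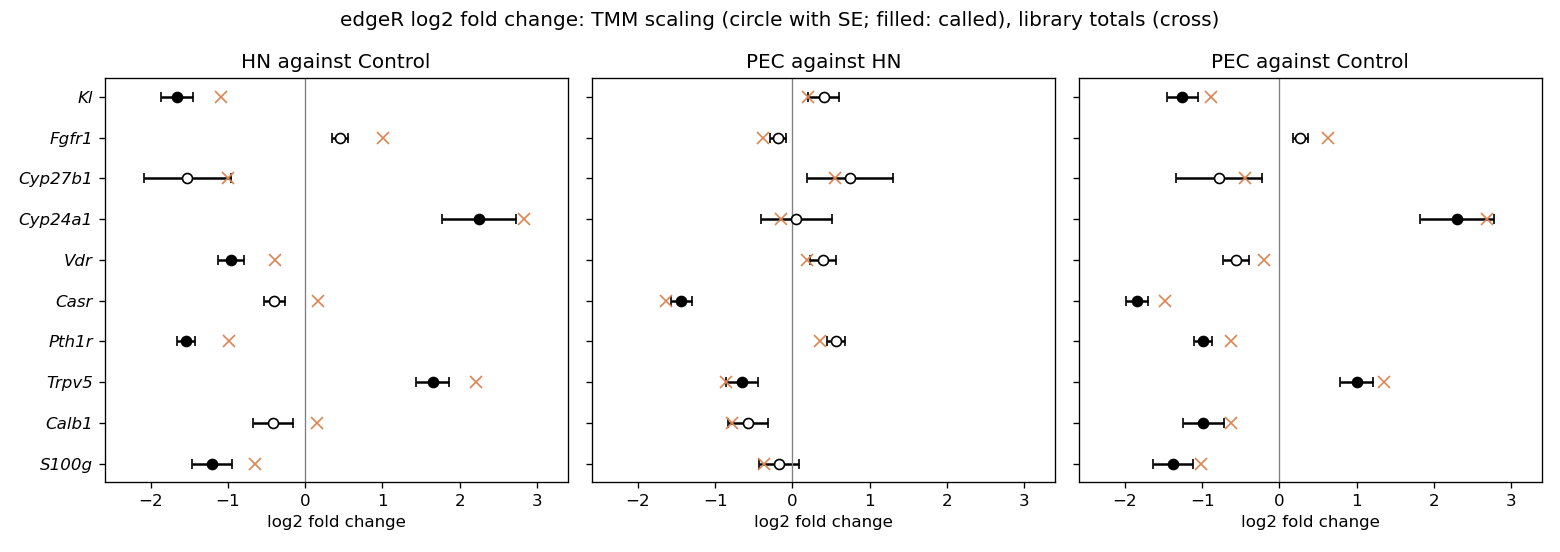
Log2 fold change of the 10 genes in the 3 comparisons, with edgeR estimates on the TMM scale as circles with their SE (filled where called) and on library totals as crosses. Crosses lie to the right of circles for HN against Control, where Casr and Calb1 change sign (-0.40 and -0.42 against 0.16 and 0.16).

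Trpv5, Kl and Calb1 were also read against Slc12a3, the sodium-chloride transporter that marks the distal convoluted tubule, with 47.9, 44.1 and 53.4 FPKM in Control, 42.4, 42.5 and 47.8 FPKM in HN and 64.7, 78.3 and 55.4 FPKM in PEC. The segments that the reads of Kl came from were not tested. The log2 ratio of Trpv5 to Slc12a3 was -3.21 ± 0.21 (SD, n = 3) in Control, -0.91 ± 0.14 in HN and -2.38 ± 0.22 in PEC, without overlap between any groups (exact permutation p = 0.10 for each comparison). For Kl the ratio was 0.33 ± 0.25 in Control, -0.64 ± 0.06 in HN and -1.04 ± 0.13 in PEC, again without overlap (exact permutation p = 0.10 for each comparison), so that relative to Slc12a3 the PEC libraries stood below the HN libraries. For Calb1 it was 0.45 ± 0.30 in Control, 0.75 ± 0.14 in HN and -0.64 ± 0.14 in PEC, where PEC lay below both other groups and Control and HN overlapped (exact permutation p = 0.10 against HN and against Control, and p = 0.30 for HN against Control). Mean FPKM of markers of this segment differed in both directions between HN and PEC. With TMM and with library totals, 3 of 6 were called higher in PEC and 0 lower. Means went from 14.1 to 11.8 FPKM for Wnk1 and from 3.84 to 2.76 FPKM for Trpm6, with overlapping ranges, whereas Slc12a3, Klhl3, Emx1 and Pvalb were higher in PEC. Ratios to the other markers were not taken, so that these orders are shown for Slc12a3 only. The ratio of S100g to Calb1 was 3.24 ± 0.60, 2.41 ± 0.27 and 2.75 ± 0.87, with overlap in each comparison (exact permutation p = 0.20 to 0.80). After adjustment over the 21 tests no ratio had an adjusted p below 0.15.

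**Figure D3:**
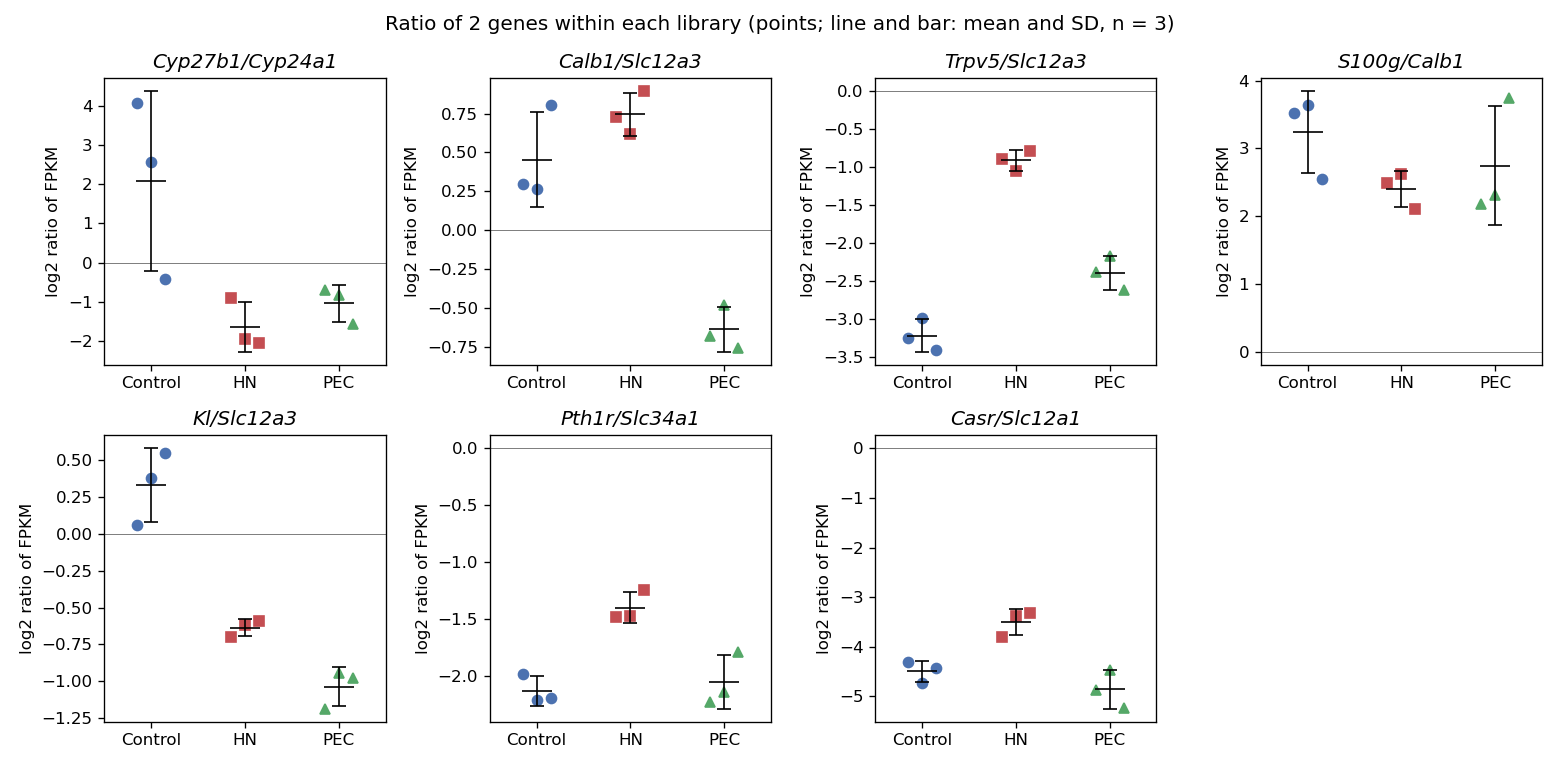
Log2 ratio of FPKM of 2 genes within each library, with 1 point per mouse and the mean and SD of 3 mice as a line and bar. Trpv5 relative to Slc12a3 is highest in HN (-0.91 ± 0.14), and Kl relative to Slc12a3 is highest in Control (0.33 ± 0.25).

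Of the genes called lower in HN on the TMM scale, Kl, Pth1r and S100g have a window outside the annotated gene. The 250 bases before their annotated starts are shown (RefSeq, GRCm38.p6). The window of Vdr, also called lower, lies within the annotated gene. A shared cause of the lower levels was not tested. RefSeq windows were found for 7 of the 10 genes, 9 windows in all, and not for Fgfr1, Cyp24a1 and Calb1. The hexamers AGGTCA or AGTTCA or GGGTCA or GGTTCA, building blocks of vitamin D receptor elements, were searched on both strands and are in capitals. Of 32851 promoter windows of the same length, 38.6% held at least 1 hexamer. The window of Kl is chr5:150952357-150952606 on the plus strand, that of Pth1r chr9:110747146-110747395 on the minus strand and that of S100g chrX:162964600-162964849 on the minus strand, each written 5′ to 3′.
Kl: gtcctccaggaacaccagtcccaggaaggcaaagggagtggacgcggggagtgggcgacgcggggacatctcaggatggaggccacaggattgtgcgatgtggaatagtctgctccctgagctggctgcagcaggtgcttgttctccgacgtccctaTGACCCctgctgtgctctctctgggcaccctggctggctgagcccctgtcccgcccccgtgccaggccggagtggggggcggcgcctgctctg
Pth1r: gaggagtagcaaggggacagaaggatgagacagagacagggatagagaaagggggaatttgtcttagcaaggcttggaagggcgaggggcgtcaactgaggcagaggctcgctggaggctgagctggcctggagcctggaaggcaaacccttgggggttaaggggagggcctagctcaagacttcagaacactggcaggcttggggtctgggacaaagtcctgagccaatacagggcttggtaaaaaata
S100g: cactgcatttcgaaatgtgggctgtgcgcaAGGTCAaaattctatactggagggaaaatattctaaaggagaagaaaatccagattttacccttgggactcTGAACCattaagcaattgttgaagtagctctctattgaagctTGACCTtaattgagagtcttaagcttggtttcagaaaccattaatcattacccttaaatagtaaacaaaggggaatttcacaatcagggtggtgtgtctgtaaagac
S100g held 3 hexamers, from position -220 to -215, -149 to -144 and -107 to -102 before the start, Kl held 1 from -93 to -88, and Vdr held 1 from -91 to -86. Cyp27b1, Casr, Trpv5 and all 3 windows of Pth1r held none. Hexamers in direct repeat with 3 bases between them, the classical spacing, were in 13 of the 32851 windows (0.0396%). None of the 9 windows of the 7 genes searched held one, and Fgfr1, Cyp24a1 and Calb1 were not searched. The motif TATAAA, on either strand, was in 12.4% of windows and, among the 7 genes searched, in that of Trpv5, from -43 to -38. A match describes letters only.

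For other genes of the FGF23, Klotho and phosphate pathway the split by direction depended on the scale. Of 16 listed genes 14 were tested, and 6 were called lower, 1 higher and 7 not in HN (beside 14.7% lower and 17.7% higher of all genes), with a median log2 fold change of -0.31 beside -0.00081 for all genes. With library totals 3 were called lower and 3 higher (beside 1287 lower and 7707 higher of all 21392 genes), with a median of 0.25 beside 0.56. In PEC against HN, 5 were called higher and 2 lower (beside 13.4% and 15.3% of all genes), with a median of 0.36 beside -0.015 for all genes. With library totals it was 3 higher and 3 lower (beside 1951 higher and 4631 lower of all 21392 genes). Slc34a1, with 668, 717 and 739.6 FPKM in Control, 209, 209 and 216 FPKM in HN and 437, 522 and 323 FPKM in PEC, fell in HN (log2 fold change -2.28 ± 0.17 SE) and rose in PEC against HN (1.23 ± 0.16 SE). The phosphate transporter Slc34a3 had the same directions (-2.73 ± 0.21 SE, then 0.97 ± 0.20 SE). Slc34a2, a phosphate transporter better known from lung and gut, was at 0.41, 0.61 and 0.61 FPKM in Control, 13.1, 13.1 and 16.7 FPKM in HN and 7.63, 9.14 and 7.26 FPKM in PEC, with HN above Control by 4.17 ± 0.20 SE and PEC below HN by a log2 fold change of -0.62 ± 0.17 SE. Galnt3, whose enzyme protects FGF23 from cleavage, was lower in PEC than in HN (-0.62 ± 0.13 SE). The PEC against HN calls of Slc34a2 and Galnt3 were lost without some single libraries, at -0.51 without HN replicate 12, -0.59 without PEC replicate 1 and -0.53 without PEC replicate 3 for Slc34a2, and at -0.57 without HN replicate 4 and -0.54 without PEC replicate 3 for Galnt3. They were also lost with upper-quartile scaling (-0.49 for both) and with the gene length trend removed (-0.51 for Slc34a2 and -0.56 for Galnt3), and that of Galnt3 with length and GC trends removed (-0.46).

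Among 13 listed genes of vitamin D uptake and metabolism, 12 were tested, and 7 were called lower, 1 higher and 4 not in HN (beside 14.7% lower and 17.7% higher of all genes), with a median log2 fold change of -0.98 beside -0.00081 for all genes. With library totals 3 were lower and 2 higher (beside 1287 lower and 7707 higher of all 21392 genes), with a median of -0.42 beside 0.56. In PEC against HN, 5 were called higher and 1 lower (beside 13.4% and 15.3% of all genes), with a median of 0.22. With library totals it was 2 higher and 2 lower (beside 1951 higher and 4631 lower of all 21392 genes). Lrp2 and Cubn, which encode megalin and cubilin, the endocytic receptors that retrieve vitamin D with its carrier, fell in HN (-1.89 ± 0.19 SE and -1.74 ± 0.19 SE). Cubn rose in PEC against HN (0.98 ± 0.18 SE), from 7.70, 8.14 and 9.74 FPKM to 14.2, 17.7 and 11.5 FPKM. Gc, which encodes that carrier, was higher in HN than in Control (1.92 ± 0.28 SE), at 15.8, 20.3 and 11.0 FPKM in Control and 98.7, 71.8 and 85.6 FPKM in HN. The retinoid X receptor gene Rxrb, a partner of Vdr, was lower in PEC than in HN (-0.63 ± 0.12 SE), a call lost without HN replicate 4 (-0.53), with upper-quartile scaling (-0.50) and with length and GC trends removed (-0.35). Rxrg had 25, 12 and 21 counts in Control, 0, 0 and 10 counts in HN and 23, 11 and 139 counts in PEC, and was called higher in PEC than in HN (log2 fold change 4.58 ± 1.45 SE, edgeR adjusted p = 0.033). That call was lost in a fit of HN and PEC alone (4.59) and without HN replicate 4 (4.03), HN replicate 8 (3.99) or PEC replicate 3 (2.63), where the numbers are log2 fold changes. Without HN replicate 12 both HN libraries left had 0 counts, so that no fold change is given.

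Of 22 listed genes of calcium and magnesium transport, 21 were tested. In HN, 9 were called lower and 3 higher (beside 14.7% and 17.7% of all genes), with a median log2 fold change of -0.30 beside -0.00081 for all genes. With library totals 5 were lower and 8 higher (beside 1287 lower and 7707 higher of all 21392 genes), with a median of 0.27 beside 0.56. In PEC against HN 8 were higher and 2 lower (beside 13.4% and 15.3% of all genes), with a median of 0.14. With library totals it was 6 higher and 4 lower (beside 1951 higher and 4631 lower of all 21392 genes). PEC replicate 3 stood apart for Cldn2, which encodes a claudin of the proximal tubule, with 2 counts against 29061 to 46777 counts in the other 8 libraries, and for the calcium pump gene Atp2b4, with 215 counts against 2486 and 2852 counts in the other PEC libraries. Both were chosen after their values were seen, and neither was called by edgeR in the fit of all 9 libraries. Trpv6, the close relative of Trpv5, was higher in HN than in Control (2.73 ± 0.19 SE), at 0.40, 0.46 and 0.29 FPKM in Control, 3.73, 3.47 and 3.95 FPKM in HN and 2.87, 2.80 and 3.59 FPKM in PEC, and did not pass in PEC against HN (-0.05 ± 0.17 SE). The magnesium channel gene Trpm6 was higher in HN (0.75 ± 0.23 SE), a call lost without Control replicate 2 (0.56), Control replicate 4 (0.71), HN replicate 4 (0.74) or HN replicate 8 (0.65). Pvalb, which encodes the calcium buffer parvalbumin, was at 11.0, 11.4 and 17.9 FPKM in Control, 0.37, 0.25 and 0.46 FPKM in HN and 1.08, 5.45 and 7.74 FPKM in PEC (-5.73 ± 0.71 SE in HN, 3.90 ± 0.66 SE in PEC against HN). Egf, whose product stimulates magnesium uptake, had the same directions (-3.52 ± 0.18 SE, then 1.76 ± 0.17 SE). Atp2b1, the plasma membrane calcium pump, and the channel kinase Trpm7 were lower in PEC than in HN (-1.24 ± 0.11 SE and -1.38 ± 0.16 SE), and Atp2b1 was under the fold limit with length and GC trends removed (-0.51).

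Of 10 listed genes of parathyroid hormone and calcium sensing signalling, 9 were tested, and 1 was called higher and 8 not in HN (beside 17.7% higher and 14.7% lower of all genes), with a median of -0.03. With library totals 2 were higher (beside 7707 higher and 1287 lower of all 21392 genes), with a median of 0.52 beside 0.56. The 1 gene was Pth2r, a second receptor of the family, with 0 counts in each Control library and 44, 49 and 74 counts in HN, at least 12.6-fold higher when 3 counts are set for each Control library. In PEC against HN, Gnas, which encodes the stimulatory G protein subunit that couples Pth1r to cyclic AMP, was higher (0.81 ± 0.09 SE, and 0.57 with limma on log2(FPKM + 1), under the fold limit), at 37.3, 40.6 and 38.4 FPKM in HN and 60.8, 52.4 and 61.6 FPKM in PEC. Gnaq, whose product couples Casr to phospholipase C, was lower (-0.95 ± 0.10 SE), at 12.98, 11.7 and 11.8 FPKM in HN and 5.03, 5.74 and 5.57 FPKM in PEC.

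Cell type markers differed between the groups too, and their part in the differences was not tested. The counts of called markers here and in the next paragraph stand beside the shares of all genes. These were 14.7% lower and 17.7% higher in HN, and 13.4% higher and 15.3% lower in PEC against HN. With library totals, 42% of all genes were called in HN, 7707 higher and 1287 lower. In PEC against HN such totals called 30.8%, 1951 higher and 4631 lower. Counts of 1 or 2 calls in a list are not read as a result about its cells. Proximal tubule markers, where Cyp27b1 and Pth1r are mainly expressed, summed to 2338, 2537 and 2479 FPKM in Control, 857, 813 and 883 FPKM in HN and 1866, 2029 and 1395 FPKM in PEC, with 9 of 10 called lower in HN and 9 of 10 called higher in PEC against HN. Their most abundant gene was Miox, at 728 ± 54.6, 211 ± 20.1 and 695 ± 193 FPKM. Distal convoluted tubule markers summed to 94.3, 91.8 and 111 FPKM in Control, 71.96, 76.6 and 80.4 FPKM in HN and 98.0, 118 and 93.8 FPKM in PEC, led by Slc12a3, with 4 of 6 called lower and 1 higher in HN and 3 of 6 called higher in PEC against HN. Connecting tubule and principal cell markers summed to 407, 451 and 231 FPKM in Control, 304, 229.8 and 319 FPKM in HN and 322, 306 and 362 FPKM in PEC, led by Aqp2, with 2 of 8 called lower in HN and 2 of 8 higher in PEC against HN. Thick ascending limb markers summed to 1162, 1314 and 1188 FPKM in Control, 1614, 1439 and 1599 FPKM in HN and 1386, 1403 and 1312 FPKM in PEC, led by Umod, with 4 of 6 called lower in HN and 1 of 6 higher in PEC against HN. With library totals the HN calls were 2 higher and 2 lower for the thick ascending limb, 1 higher and 2 lower for the distal convoluted tubule, and 3 higher and 2 lower for the connecting tubule and principal cells, while 9 of 10 proximal tubule markers were again lower. With library totals the PEC against HN calls were 6 higher and 1 lower for the proximal tubule, 3 higher for the distal convoluted tubule and 1 higher and 1 lower for the connecting tubule and principal cells, and the 1 call for the thick ascending limb was lost. No marker gene of any list was at 0 in any library.

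Intercalated cell markers, led by Atp6v1g3, summed to 77.6 to 84.8 FPKM in Control, 74.5 to 81.8 FPKM in HN and 106 to 117 FPKM in PEC, with 4 of 6 called lower in HN and 5 of 6 higher in PEC against HN. Markers of injured tubule, led by Spp1, summed to 459 to 618 FPKM in Control, 11730 to 12955 FPKM in HN and 7728 to 9373 FPKM in PEC, with 9 of 9 called higher in HN and 2 of 9 lower in PEC against HN. Fibroblast markers, led by Col3a1, summed to 42.3 to 47.6, 349.8 to 376 and 168 to 197 FPKM, with 9 of 9 called higher in HN and 7 of 9 lower in PEC against HN. Leukocyte markers, led by Lyz2, summed to 36.5 to 40.5, 833 to 945 and 326 to 432 FPKM, with 9 of 9 called higher in HN and 6 of 9 lower in PEC against HN. Podocyte markers, led by Podxl, summed to 55.3 to 57.1, 73.9 to 83.9 and 69.8 to 79.9 FPKM, with 1 of 5 called higher in HN and all 5 not called in PEC against HN. Endothelial markers, led by Emcn, summed to 46.2 to 49.8, 56.9 to 58.6 and 40.2 to 60.4 FPKM, with 2 of 6 called lower in HN and 1 of 6 higher in PEC against HN. With library totals the HN calls were 1 higher and 1 lower for intercalated cells, 3 higher for podocytes and 1 higher for endothelium, and 9 of 9 were again higher for injured tubule, fibroblasts and leukocytes. With library totals the PEC against HN calls were 3 higher for intercalated cells, 1 lower for endothelium in place of 1 higher, and 3, 7 and 7 lower for injured tubule, fibroblasts and leukocytes, with all 5 podocyte markers again not called.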

How the data were processed

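RNA-seq libraries of kidney poly(A) RNA from 3 Control, 3 HN and 3 PEC mice were compared. The authors deposited 1 table with counts of reads per gene, without normalization. The authors also deposited FPKM in that table, computed per gene length and library total. The submitters' processing notes name Bowtie 0.12.2, mm8 and mm9, while coordinates were identical to GENCODE M21 (GRCm38) for 51991 of 55144 genes. The counting program is not given in the sources used here.

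Counts were tested with edgeR 4.0.16 in R 4.3.3 (TMM, filterByExpr, glmQLFit, glmQLFTest) in 1 fit of all 9 libraries with the group as the only term, and adjusted with Benjamini-Hochberg over 21392 genes. The step was tested on simulated data. Ratios of FPKM were compared with exact permutation tests. Alternatives were DESeq2 1.42.0, limma 3.58.1 on log2(FPKM + 1) and log2(FPKM + 0.1), other scalings, filters and thresholds, removal of a gene length trend, and each library left out in turn. Removal of length and GC trends together was added after the data were seen, as was the promoter search.

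The 10 genes and the gene lists were chosen with earlier results of these data known. Other genes were named by a rule. Within each pathway list, and in each of the comparisons that involve HN, these were the 2 largest rises and 2 largest falls among called genes whose groups did not overlap in CPM. In each marker list it was the gene with the highest mean FPKM. Also named were the denominators of the ratios and the 5 genes closest in pattern to Kl, where 182 tested genes with a CPM of 0 in some library were left out, an exception added after the data were seen, and 1 of the 5 is not reported here.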

Additional observations from a re-analysis of the deposited data

How the results depend on the processing

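Over all alternatives for the log2 fold changes of the 10 genes and the other named genes, 1180 of 1290 kept both direction and side of the threshold, 56 lost the call, 34 gained it and 20 changed sign. None of those that changed sign had been called. For HN against Control, Casr moved from -0.40 to 0.16 with library totals, 0.032 with totals without mitochondrially encoded genes, and 0.11 and 0.12 with limma at a pseudocount of 1 and 0.1. Calb1 moved from -0.42 to 0.16, 0.021, 0.16 and 0.16 under the same 4 settings. For PEC against HN, Cyp24a1 moved from 0.05 to -0.15, -0.056, -0.13 and -0.14 under them, to -0.058 with length and GC trends removed, and ranged from -0.13 to 0.29 with single libraries left out. Fgfr1 moved from -0.18 to 0.18 with the length trend removed and 0.029 with GC removed as well, which also moved Calb1 from -0.57 to 0.060. S100g ranged from -0.53 to 0.085 with single libraries left out. Beyond the scale itself the cause was not tested.

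The number of the 10 genes called in PEC against HN was 2, and became 1 in a fit of the 2 groups alone (fewer samples), 1 at a fold change of 2, 4 with the length trend removed, 5 with length and GC trends removed, and 1 to 3 with single libraries left out. All genes called were 2875 higher and 3266 lower. They became 2950 and 3307 in the fit of 2 groups, 2590 and 2925 with the length trend removed, and 2491 and 2630 with length and GC trends removed. With single libraries left out, 5164 to 6306 of all genes were called, beside 6141 with all libraries. In PEC against Control it was 7, and 4 at a fold change of 2. All genes called at a fold change of 2 were 3594 for PEC against HN and 5102 for PEC against Control, and limma on log2(FPKM + 1), which tested 15508 genes, called 5066 for PEC against Control. Among the pathway lists, vitamin D genes called in HN against Control were 8, and 5 with library totals, 4 with limma on log2(FPKM + 1) and 5 on log2(FPKM + 0.1). In PEC against Control they were 8, and 5 with library totals, with or without mitochondrially encoded genes, and with limma on log2(FPKM + 1). In PEC against HN they were 6, and 3 with limma at either pseudocount. All genes called by limma in HN against Control were 4649 higher and 1024 lower with log2(FPKM + 1). With log2(FPKM + 0.1) they were 5906 higher and 1191 lower. In PEC against HN all genes called were 1356 higher and 3390 lower, and 1683 higher and 4249 lower. Each of these fits tested 15508 genes. FGF23, Klotho and phosphate genes called in HN against Control were 7, and 4 with limma on log2(FPKM + 1). Parathyroid hormone and calcium sensing genes were 1 in HN against Control, and 2 with library totals and 0 where a mean of 0.5 FPKM was required, which left Pth2r out, and were 2 in PEC against HN, and 1 with limma. At a fold change of 2 the FGF23, vitamin D, calcium and magnesium, and parathyroid hormone lists had 4, 5, 6 and 1 genes called in HN against Control, 1, 1, 8 and 0 in PEC against HN. The counts of the 10 genes called in HN against Control were 5 to 8 under all settings. All genes called in that comparison were 6931, and 8994 with library totals and 6115 to 7106 with single libraries left out. At a fold change of 2 they were 2939 higher and 1902 lower, and without a minimum fold change 4520 higher and 4425 lower.

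Of 147 alternatives for the ratios, 145 kept their direction. S100g to Calb1 in PEC against HN ranged from -0.17 to 0.62 and Pth1r to Slc34a1 in PEC against Control from -0.054 to 0.17 with single libraries left out, both below 0 without PEC replicate 3.

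No paired analysis was run, because the study's methods assigned mice to groups at random and no label pairs mice between groups. Each of the 10 genes had at least 503 counts in every library, and the part of depth in the calls was not tested.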

Other observations

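The deposited table assigns 54 genes to a KEGG term for hormone-regulated calcium reabsorption, a list taken up after the data were seen, which holds 5 of the 10 genes. Of 51 tested, 9 were called higher and 9 lower in HN against Control (beside 17.7% and 14.7% of all genes), with a median log2 fold change of -0.15 beside -0.00081 for all genes, and 8 higher and 8 lower in PEC against HN (beside 13.4% and 15.3%), with a median of 0.07 beside -0.015. Among them, the tissue kallikrein gene Klk1 was at 1452, 1233 and 1156 FPKM in Control, 606, 617 and 544 FPKM in HN and 1818, 1395 and 1579.5 FPKM in PEC. The PEC libraries lay above all HN libraries and overlapped Control. Its relative Klk1b5 was at 1.75, 1.54 and 2.09 FPKM in Control, 1.58, 1.21 and 1.13 FPKM in HN and 10.9, 9.37 and 8.41 FPKM in PEC, where PEC exceeded both other groups (log2 fold change 3.07 against HN and 2.08 against Control). Klk1 genes are a family of close copies, and reads could be split between them. Adcy9, an adenylate cyclase gene, was at 3.24, 3.14 and 2.90 FPKM in Control, 2.75, 3.13 and 3.12 FPKM in HN and 0.95, 0.97 and 0.88 FPKM in PEC, lower in PEC than in HN by a log2 fold change of -1.47. These 3 genes were picked after their values were seen.

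Control replicate 5 combined the lowest Cyp27b1 (4.87 FPKM) and S100g (547 FPKM) of the Control libraries with the highest Cyp24a1 (6.45 FPKM), Kl (78.2 FPKM), Vdr (37.5 FPKM) and Calb1 (93.1 FPKM). It also had the lowest Aqp2 of the Control libraries, 121 FPKM against 272 and 309 FPKM in Control replicates 2 and 4, and the highest share of mitochondrially encoded counts of the 9 libraries, 16.3%. Groups of 3 were not tested for outlying libraries.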
